A study of Homo sapiens with 12 samples.

Results

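The cytosines described here belong to human tRNAs with a long variable arm, the extra hairpin that sets tRNA-Leu, tRNA-Ser and tRNA-SeC apart from the other cytosolic tRNAs. They were chosen by name: every site of a tRNA called tRNA-SeC, tRNA-Leu or tRNA-Ser in the deposited site lists was kept. This gave 13 of the 59 listed sites and 29 of the 234 site entries, in 4 of the 15 listed tRNAs. tRNA-SeC-TCA-1-1 held 10 of the sites, and tRNA-Leu-CAA-4-1, tRNA-Leu-CAA-1-1 and tRNA-Ser-TGA-1-1 held 1 each. Methylation of tRNA was measured by bisulfite sequencing in U251, an established human glioblastoma line, in 3 libraries labelled Si and 3 labelled NC. Neither abbreviation is spelled out in the labels. The series' design text names NSUN3-knockdown and wild-type cells, so Si was taken to be the knockdown and NC its control, and no other genotype, agent or time is given for either group. NSUN3 is an RNA methyltransferase known for the wobble cytosine of mitochondrial tRNA-Met, so none of these nuclear-encoded tRNAs is its known target. The 6 libraries of T98G were not analysed here.

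In bisulfite sequencing an unmodified cytosine is converted and read as T, whereas 5-methylcytosine is not. The level of a site is the share of its reads, in percent, that kept the C. In human tRNAs the methyltransferase NSUN2 is known to modify cytosines where the variable region meets the T stem, at standard positions 48 to 50, called junction positions here. It is also known for the wobble cytosine of intron-containing precursors of tRNA-Leu with the anticodon CAA. Cytosines held in a base pair are less open to bisulfite than unpaired ones, so a pair that does not melt leaves unconverted reads without methylation. tRNA-SeC carries selenocysteine to UGA codons and is folded differently from other tRNAs, with a longer acceptor stem and D stem.

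The sequences of the 4 tRNA genes show where the listed cytosines lie. They are given 5′ to 3′ as DNA from the deposited annotation, on hg38, with the listed cytosines in capitals and every other base in lower case.
tRNA-SeC-TCA-1-1: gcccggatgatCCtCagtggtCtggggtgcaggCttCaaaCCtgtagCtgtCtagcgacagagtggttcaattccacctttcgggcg
tRNA-Leu-CAA-4-1: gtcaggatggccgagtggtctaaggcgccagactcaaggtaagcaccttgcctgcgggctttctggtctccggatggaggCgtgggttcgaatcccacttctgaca
tRNA-Leu-CAA-1-1: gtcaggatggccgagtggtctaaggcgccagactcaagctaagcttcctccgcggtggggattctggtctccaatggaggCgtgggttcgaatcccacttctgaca
tRNA-Ser-TGA-1-1: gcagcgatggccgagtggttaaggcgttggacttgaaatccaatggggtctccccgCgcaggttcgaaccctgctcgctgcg
The capitals of tRNA-SeC are spread over its 5′ part and middle, while tRNA-Leu and tRNA-Ser have a single capital just before the T stem.

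Each gene matched a RefSeq tRNA gene of GRCh38.p14 by chromosome, start and end. tRNA-SeC-TCA-1-1 is TRU-TCA1-1 on the minus strand at chr19:45478601-45478687. tRNA-Leu-CAA-4-1 is TRL-CAA4-1 on the plus strand at chr1:248873855-248873960. tRNA-Leu-CAA-1-1 is TRL-CAA1-1 on the minus strand at chr6:28896223-28896328 and is 1 of 2 gene copies that the deposited annotation gives for this sequence. tRNA-Ser-TGA-1-1 is TRS-TGA1-1 on the plus strand at chr10:67764503-67764584. Both tRNA-Leu sequences of 106 bases include an intron, placed from the pairing of the anticodon stem at bases 39 to 60 in tRNA-Leu-CAA-4-1 and 39 to 61 in tRNA-Leu-CAA-1-1. The variable regions hold 14 to 16 bases, with a hairpin of 5 base pairs in each of the 4 tRNAs, against 4 to 5 bases and no hairpin in the 11 other listed tRNAs.

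Bases are counted from the 5′ end of the printed sequence. Counted back from the 3′ end, base 81 of both tRNA-Leu and base 57 of tRNA-Ser are standard position 48, the last base of the variable region. Both neighbours of these 3 cytosines were G. Among the 11 position 48 sites listed in other tRNAs, 2 were followed by G and 8 by C. In tRNA-SeC, bases 12, 13, 15 and 22 fell in the D stem, bases 34 and 37 in the anticodon loop, bases 41 and 42 in the 3′ strand of the anticodon stem, and bases 48 and 52 in the 5′ strand of the variable stem. Of its 10 listed cytosines, 8 are therefore paired by this placement. Base 37 is the middle base of the anticodon. tRNA-SeC has 0 cytosines at its own last variable base and first 2 T stem bases, so it offers no junction site to set beside those of tRNA-Leu and tRNA-Ser.

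The lists are filtered: no entry of the series lay under 30 reads or a level of 10.0%. Absence from a library's list therefore says nothing of the level, and such sites were treated as missing rather than as 0. Listed sites numbered 39, 38 and 38 in the Si libraries, against 47, 34 and 38 in the NC libraries. Coverage at the 13 sites ran from 30 to 60 reads, and 12 of the 29 entries had 35 reads or fewer, while the highest coverage of any listed site was 210 reads. None of the 13 sites was listed in all 6 libraries. Listing in 1 library was found for 4 sites, in 2 libraries for 4, in 3 libraries for 4 and in 5 libraries for 1. Intervals given below are exact (Clopper-Pearson) binomial 95% intervals, which cover counting error only.

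**Figure D1:**
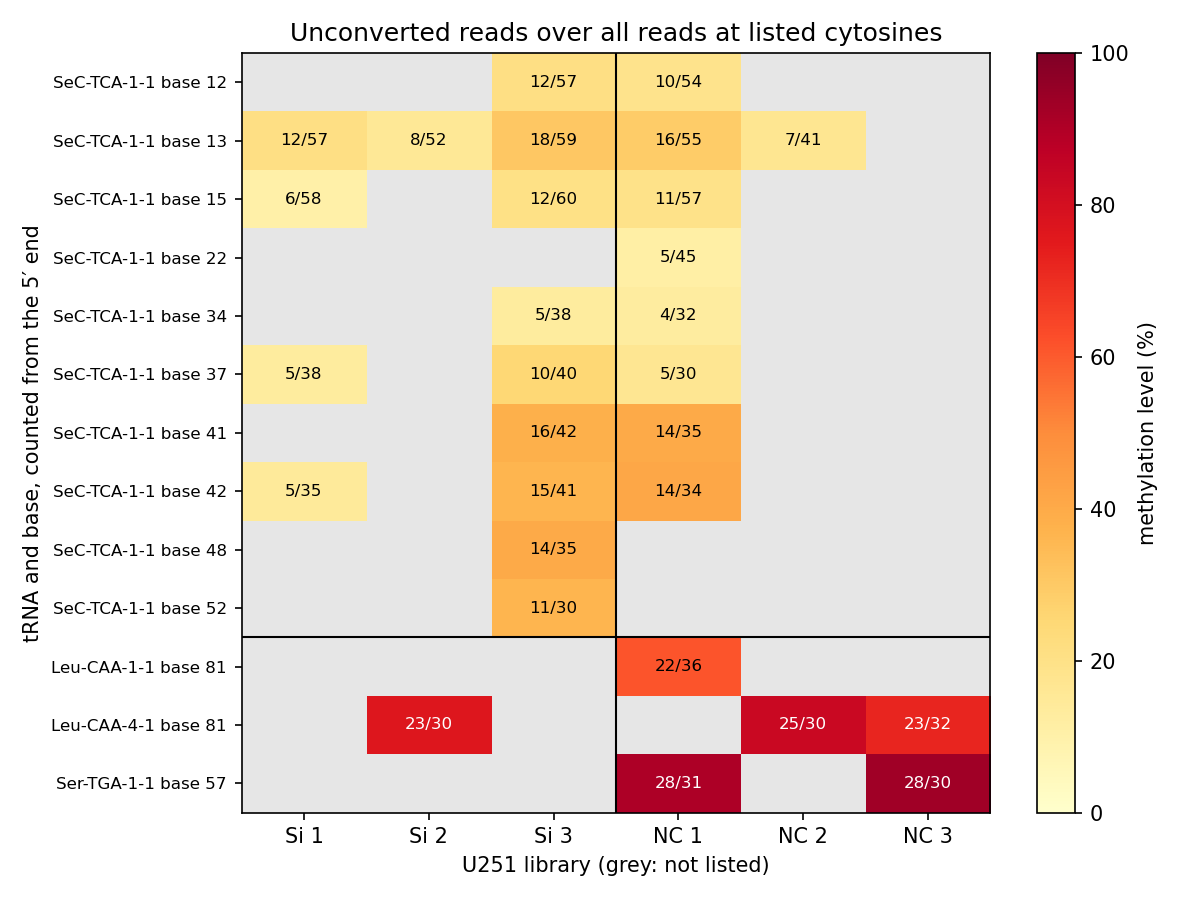
Unconverted reads over all reads at each of the 13 cytosines (rows, by base from the 5′ end) in the 6 U251 libraries (columns, Si left of NC); colour gives the methylation level in percent and grey means not listed. tRNA-SeC was listed mainly in Si replicate 3 and NC replicate 1 at levels up to 41.2%, and all 6 entries of tRNA-Leu and tRNA-Ser lay at 61.1% or higher.

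The junction cytosines of tRNA-Leu and tRNA-Ser had high levels wherever they were listed. tRNA-Ser-TGA-1-1, which decodes serine UCA codons, was listed at base 57 in NC libraries alone. Its level was 90.3% (28 of 31 reads, 74.2% to 98%) in NC replicate 1 and 93.3% (28 of 30 reads, 77.9% to 99.2%) in NC replicate 3. These were the highest levels among the 13 sites, at or next to the lowest listed coverage, and the level in Si libraries is unknown. The site is at chromosome 10, 67764559. The neighbouring cytosine at base 59, standard position 50 in the T stem, was not listed in any library.

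tRNA-Leu-CAA-4-1, which decodes leucine UUG codons, was listed at base 81, chromosome 1, 248873935, in 3 libraries. Its level was 76.7% (23 of 30 reads, 57.7% to 90.1%) in Si replicate 2, against 83.3% (25 of 30 reads, 65.3% to 94.4%) in NC replicate 2 and 71.9% (23 of 32 reads, 53.3% to 86.3%) in NC replicate 3. The Si value lay between the NC values. In NC replicate 1 the entry was instead base 81 of tRNA-Leu-CAA-1-1, chromosome 6, 28896248, with 61.1% (22 of 36 reads, 43.5% to 76.9%). This was the lowest of the 6 junction entries, and its interval overlapped those of all 3 tRNA-Leu-CAA-4-1 entries. No library listed both leucine tRNAs. From base 74 to base 106, a stretch of 33 bases that includes base 81, the 2 genes have the same sequence, and they also share bases 1 to 38, so reads from a short fragment over base 81 can fit either and the split of reads between them is uncertain. The wobble cytosine at base 35 of each tRNA-Leu, the one tied to NSUN2 in intron-containing precursors, was in none of the 6 lists.

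In tRNA-SeC-TCA-1-1 every entry lay between 10.3% and 41.2%, well under the junction range of 61.1% to 93.3%. The number of listed sites of this tRNA was 4, 1 and 9 in Si replicates 1, 2 and 3, against 8, 1 and 0 in NC replicates 1, 2 and 3. Libraries with many and with few sites thus occurred in both groups. Between base 12 and base 52 the sequence has 11 cytosines, of which 10 were listed somewhere. The exception is base 30, in the 5′ strand of the anticodon stem. In all, 10 of its 23 cytosines were listed, or 43.5%. Of its 19 paired cytosines 8 were listed. Those in the acceptor stem and T stem were not, nor were base 30 and base 59, the latter in the 3′ strand of the variable stem. The share of all cytosines that were listed was 4.76% in each tRNA-Leu without the intron and 4.35% in tRNA-Ser. In the 11 other listed tRNAs it ran from 5.00% to 42.9%, with a median of 15%.

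Base 13 in the D stem, paired with base 26, was the most often listed site. Its level was 21.1%, 15.4% and 30.5% in Si replicates 1, 2 and 3 over 57, 52 and 59 reads, against 29.1% and 17.1% in NC replicates 1 and 2 over 55 and 41 reads. The Si and NC values interleave. The mean was 22.3% ± 7.64 (SD, n = 3) in Si and 23.1% ± 8.50 (SD, n = 2) in NC. Base 12 beside it had 21.1% (57 reads) in Si replicate 3, against 18.5% (54 reads) in NC replicate 1. Base 15, paired with base 24, had 10.3% and 20% in Si replicates 1 and 3 over 58 and 60 reads, against 19.3% in NC replicate 1 over 57 reads. The fourth D stem cytosine, base 22, was listed in NC replicate 1 alone, at 11.1% (5 of 45 reads, 3.71% to 24.1%).

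Where several of bases 12, 13 and 15 were listed in a library, their coverage differed by at most 3 reads. In Si replicate 2, base 13 had 52 reads while bases 12 and 15 were unlisted; whether the coverage or the level kept them out cannot be read from the lists.

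The unpaired cytosines of the anticodon loop had levels of 12.5% to 25%. Base 34 had 13.2% (5 of 38 reads) in Si replicate 3, against 12.5% (4 of 32 reads) in NC replicate 1. Base 37 had 13.2% and 25% in Si replicates 1 and 3 over 38 and 40 reads, against 16.7% in NC replicate 1 over 30 reads. These loop values stand below the anticodon stem values of the same libraries.

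The paired bases after the loop, in the anticodon and variable stems, had the highest tRNA-SeC levels in Si replicate 3 and NC replicate 1. Base 41, paired with base 33, had 38.1% (16 of 42 reads) in Si replicate 3, against 40% (14 of 35 reads) in NC replicate 1. Base 42, paired with base 32, had 14.3% (5 of 35 reads, 4.81% to 30.3%) and 36.6% (15 of 41 reads, 22.1% to 53.1%) in Si replicates 1 and 3, against 41.2% (14 of 34 reads, 24.6% to 59.3%) in NC replicate 1. At base 42, Si replicate 3 thus lay nearer to NC replicate 1 than to Si replicate 1. In the variable stem, bases 48 and 52 were listed in Si replicate 3 alone, at 40% (14 of 35 reads) and 36.7% (11 of 30 reads).

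Within Si replicate 3, the 7 stem sites of tRNA-SeC averaged 31.8% and the 2 loop sites 19.1%. Within NC replicate 1, 6 stem sites averaged 26.5% and 2 loop sites 14.6%. In Si replicate 1 the means were close, at 15.2% over 3 stem sites and 13.2% at 1 loop site. The sites from base 41 on averaged 37.8% in Si replicate 3 and 40.6% in NC replicate 1, while the D stem averaged 23.9% and 19.5% in those libraries. In Si replicate 1 the order was the other way, with 14.3% at base 42 and 15.7% over the D stem. Coverage fell along the molecule, with 41 to 60 reads at bases 12 to 15 and 30 to 42 reads from base 34 on. The loop sites, at 30 to 40 reads, had lower levels than most stem sites of like coverage, and the part of coverage in the levels was not tested.

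**Figure D2:**
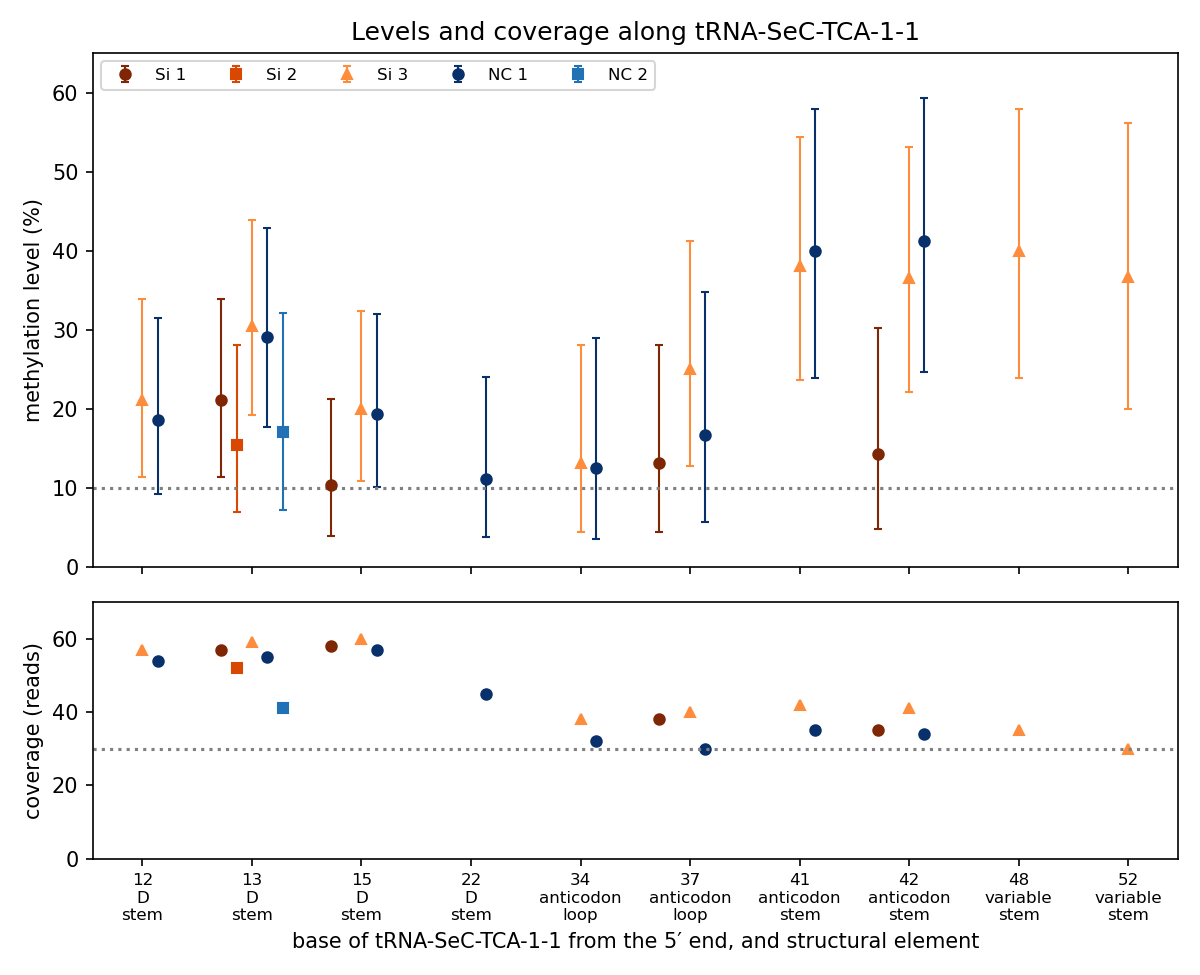
Methylation level in percent (top, with exact 95% binomial intervals) and coverage in reads (bottom) at the 10 listed cytosines of tRNA-SeC-TCA-1-1, by base from the 5′ end, in the 3 Si libraries (orange to brown) and NC replicates 1 and 2 (blue). Dotted lines mark the lowest listed level (10.0%) and coverage (30 reads); Si replicate 3 and NC replicate 1 run close together, and Si replicate 1 lies below both at bases 13, 15, 37 and 42.

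In tRNA-SeC, Si replicate 3 was closer to an NC library than to Si replicate 1. Over the 7 tRNA-SeC bases listed in both, Si replicate 3 averaged 26.3% and NC replicate 1 averaged 25.3%. Over the 4 bases listed in both Si libraries, Si replicate 3 was higher than Si replicate 1 at each, by 9.46 to 22.3 percentage points, with means of 28.0% and 14.7%. Reads over neighbouring bases come from the same molecules, so these bases are not separate measurements. For every pair of libraries at the same site, 26 pairs over the 13 sites, the exact intervals overlapped. Overlap is a description, not a test of the difference.

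Whether any of these cytosines differed between Si and NC was tested in a fit over all sites of the series listed in at least 1 library of each group. A library that does not list a site, for low coverage or a low level, is missing from the fit at that site. The odds ratios therefore compare listed entries alone and cannot show a level that fell below the lists' floor. edgeR's quasi-likelihood test on methylated and unmethylated reads took in 42 sites, of which 1, or 2.38%, passed an adjusted p of 0.05. Of the 13 sites of tRNA-SeC, tRNA-Leu and tRNA-Ser, 8 could be tested and 0 passed, and 0 had an unadjusted p under 0.05. limma called 0 sites in all, and Fisher's exact test on summed reads called 1 site, again with 0 among these tRNAs. At 7 of the 8 sites, 1 of the groups or both had a single library, which the fit takes to vary like the other sites. On simulated reads over 42 sites, the edgeR fit recovered 8.67% of changes of 1 log2 unit and 60.7% of changes of 2. The changed sites were drawn from all 42, with a spread between libraries set in advance. Recovery at the 8 sites alone, with their few libraries and reads, was not counted. The 0 passing sites therefore do not show that these cytosines were unchanged. The other 5 sites, which are bases 22, 48 and 52 of tRNA-SeC, base 81 of tRNA-Leu-CAA-1-1 and base 57 of tRNA-Ser, were listed in 1 group alone and could not be tested.

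By the fit, 5 of the 8 were lower and 3 higher in Si, with a median log2 odds ratio, Si against NC, of -0.08, beside -0.07 over all 42 sites. At base 42 of tRNA-SeC the log2 odds ratio was -0.99 (adjusted p = 0.984 from edgeR), and it ran from -2.07 without Si replicate 3 to -0.28 without Si replicate 1. Without Si replicate 3 its unadjusted edgeR p was 0.0430 (adjusted p = 0.545 from edgeR), the single case of an unadjusted p under 0.05 among these tRNAs in the edgeR fits with a library left out. At base 13, the 1 site listed in at least 2 libraries of each group, it was -0.10 (adjusted p = 0.984 from edgeR) and turned to 0.50 without NC replicate 1. At base 81 of tRNA-Leu-CAA-4-1 it was -0.07 (adjusted p = 0.984 from edgeR) and turned to 0.36 without NC replicate 2.

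The number of listed sites of these tRNAs was 4, 2 and 9 in Si, against 10, 2 and 2 in NC. The means were 5.00 ± 3.61 in Si and 4.67 ± 4.62 in NC (SD, n = 3 each). The difference of 0.33 sites was smaller than the spread within either group (exact two-sided permutation test, p = 1.0; 3 libraries against 3 cannot go below 0.1). It turned to -1.67 without Si replicate 3, to -1 without NC replicate 2 or NC replicate 3, and was 3.00 without NC replicate 1.

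The junction and stem positions were then compared within each library, over all listed tRNAs. Junction sites averaged 74.8%, 75.3% and 70.1% in Si replicates 1, 2 and 3, and 73.6%, 70% and 71.6% in NC replicates 1, 2 and 3. Stem sites averaged 19.2%, 16.5% and 33.5% in the Si libraries, and 27.7%, 32.9% and 24.5% in the NC libraries, in the same order. Junction levels were higher in 6 of 6 libraries, by 46.8 ± 9.15 percentage points (SD, n = 6; exact two-sided sign-flip permutation test, p = 0.0312, the smallest that 6 libraries allow; 0.125 after Benjamini-Hochberg adjustment over the 4 tests across libraries). An adjusted p of 0.125 is the smallest these 4 tests can reach, so the adjusted value could not pass 0.05 whatever the data. The difference was 27.4 points for sites of at least 20% and 62.1 with medians. The stem class includes position 72 of other tRNAs, in the acceptor stem, with levels of 13.3% to 97.9%. In the 20% setting, position 72 was the whole stem class in Si replicate 2 (1 site, 77.4%) and NC replicate 3 (2 sites, mean 76.1%). Without positions 40 and 72 of the other tRNAs, the difference was 54.4 points. The junction and stem means cover listed sites, so sites under 10.0% are missing from both, and incomplete conversion of paired cytosines was not tested.

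Among tRNA-SeC, tRNA-Leu and tRNA-Ser alone, 3 libraries listed both kinds of site. The junction sites of tRNA-Leu and tRNA-Ser stood above the stem sites of tRNA-SeC by 61.3 percentage points in Si replicate 2, against 49.2 in NC replicate 1 and 66.3 in NC replicate 2. The mean was 58.9 points (exact sign-flip permutation p = 0.25, the smallest that 3 libraries allow). The 2 classes come from different tRNAs here, so position and tRNA cannot be told apart.

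**Figure D3:**
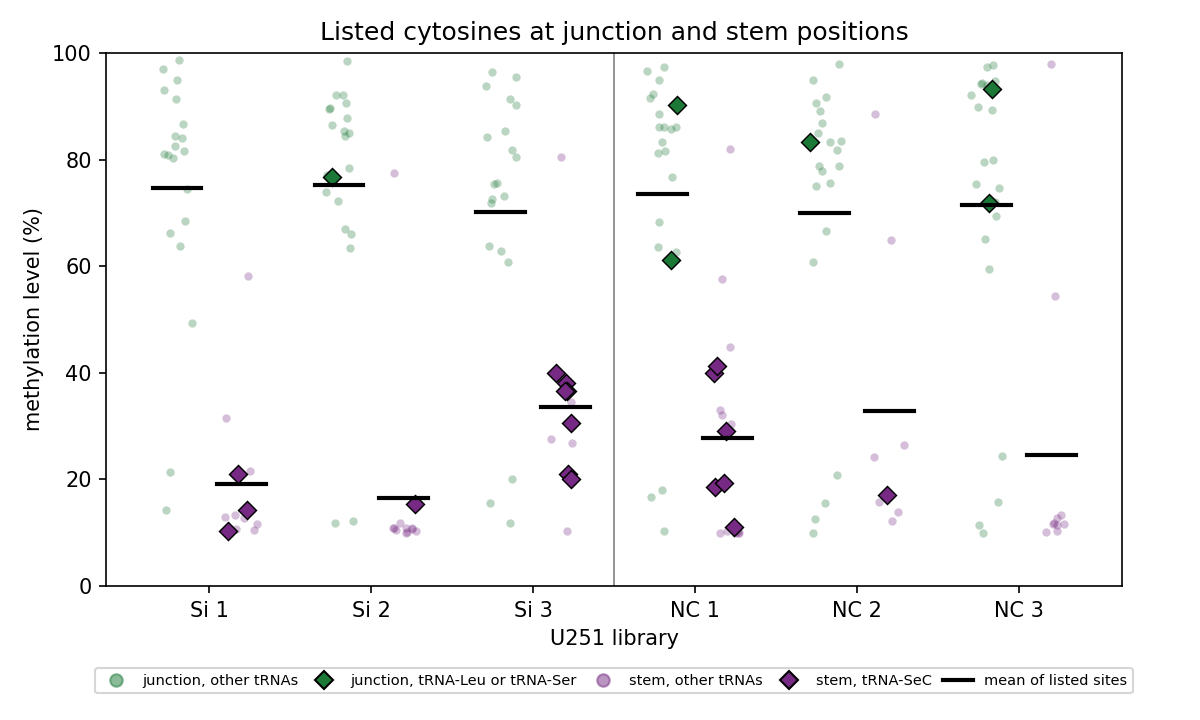
Methylation level in percent of each listed cytosine at junction positions 48 to 50 (green) and at paired positions elsewhere (purple) in the 6 U251 libraries, Si left of NC; diamonds are tRNA-Leu and tRNA-Ser (green) or tRNA-SeC (purple), circles are other tRNAs, and bars are means over all listed sites of the class. The tRNA-SeC diamonds lie between 10.3% and 41.2%, and the tRNA-Leu and tRNA-Ser diamonds between 61.1% and 93.3%.

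The stem sites of tRNA-SeC were set against those of the other tRNAs in the same library. They averaged 15.2%, 15.4% and 31.8% in Si replicates 1, 2 and 3, against 20.4%, 16.6% and 35.9% in the other tRNAs. In NC replicates 1 and 2 they averaged 26.5% and 17.1%, against 28.3% and 35.2% in the other tRNAs. The tRNA-SeC values rest on 3, 1 and 7 sites in these Si libraries and on 6 and 1 in these NC libraries. In Si replicate 2 and NC replicate 2 the value is base 13 alone, over 52 and 41 reads. The other tRNAs had 10, 12 and 5 sites in Si and 12 and 7 in NC, so the sites compared change between libraries. The mean difference was -6.06 ± 6.91 percentage points (SD, n = 5 libraries), lower in 5 of 5 (exact two-sided sign-flip permutation test, p = 0.0625, the smallest that 5 libraries allow; 0.125 adjusted). Without NC replicate 2, where the difference was -18.1, the mean was -3.06. The direction rests on position 72 of other tRNAs, with levels of 13.3% to 97.9%. NSUN6 is known for this position in tRNA-Thr and tRNA-Cys. The listed position 72 sites were in tRNA-Thr and in tRNA-His, with 54.3% to 65% in tRNA-His. Without position 72 the difference turned to 3.62 points (p = 0.188 in the exact sign-flip permutation test). Without position 40, at 10.4% to 12.7%, it was -7.38. It was -10.8 for sites of at least 20%, which leaves 3 libraries. It was -2.06 with reads pooled over sites, -2.97 for sites of at least 40 reads, -3.09 against tRNA-His alone without its position 72, and turned to 2.32 with medians. With pooled reads, at 40 reads and against tRNA-His, tRNA-SeC was the higher in 2 of 5 libraries each time.

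Levels of the remaining stem sites in other tRNAs, without positions 40 and 72, also varied between libraries. They averaged 17.5%, 11.1% and 24.8% in Si replicates 1, 2 and 3, and 18.9%, 18.7% and 11.4% in NC replicates 1, 2 and 3. Si replicate 3 and NC replicate 1, with 9 and 8 tRNA-SeC sites, had the highest of these means, and Si replicate 2 and NC replicate 3, with 1 and 0 sites, had the lowest. NC replicate 2, with 1 tRNA-SeC site, lay close to NC replicate 1. These means rest on 3 to 10 sites a library and on which tRNAs were listed. The stem sites of tRNA-His ran from 10.0% to 44.8%, while all 24 entries of other tRNAs lay between 10.0% and 13.2%. In tRNA-His the library means were 24.7%, 11.9% and 29.6% in Si replicates 1, 2 and 3, and 36.6%, 18.7% and 12.7% in NC replicates 1, 2 and 3. The NC replicate 3 value is 1 site, base 30, whereas each other library has 3 sites. Base 30 was the highest of the 3 wherever all were listed. The part of incomplete conversion in the tRNA-SeC levels was not tested.

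The junction sites of tRNA-Leu and tRNA-Ser were likewise set against the junction sites of other tRNAs. They averaged 76.7% in Si replicate 2, against 75.2% in other tRNAs. In NC replicates 1, 2 and 3 they averaged 75.7%, 83.3% and 82.6%, against 73.4%, 69.4% and 70.5% in other tRNAs. In Si replicate 2 and NC replicate 2 the value is 1 site, base 81 of tRNA-Leu-CAA-4-1, over 30 reads each. In NC replicate 1 it is the mean of 2 sites, base 57 of tRNA-Ser and base 81 of tRNA-Leu-CAA-1-1. In NC replicate 3 the 2 sites are base 57 of tRNA-Ser and base 81 of tRNA-Leu-CAA-4-1. The other tRNAs had 20 or 21 sites in these libraries. The mean difference was 7.46 ± 6.47 percentage points (SD, n = 4 libraries), higher in 4 of 4 (exact two-sided sign-flip permutation test, p = 0.125, the smallest that 4 libraries allow; 0.167 adjusted). It turned to -2.32 with medians and to -1.66 when sites under 20% were left out. Position 48 in the other tRNAs ranged from 10.0% to 97.3% over 11 sites, with a median entry of 66.3%, so the levels of tRNA-Leu and tRNA-Ser lay inside the range of that position elsewhere. Against position 48 alone in the other tRNAs, the difference was 24.2 points, higher in 4 of 4 libraries (exact sign-flip permutation p = 0.125). With tRNA-Leu alone against all other junction sites it was 1.13 points. With reads pooled over libraries, position 48 sites of other tRNAs followed by C ran from 10.5% (tRNA-Gly-CCC-1-1) to 85.9% (tRNA-Asp-GTC-2-5). Those not followed by C had 95.5% (tRNA-Thr-CGT-2-1), 69.5% (tRNA-Thr-CGT-4-1) and 77.1% (tRNA-iMet-CAT-1-1). Pooled levels were 77.2% in tRNA-Leu-CAA-4-1, 61.1% in tRNA-Leu-CAA-1-1 and 91.8% in tRNA-Ser. The part of the following base in the 24.2 points was not tested.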

How the data were processed

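Per the labels' protocols, small RNA was enriched from TRIzol extracts, treated with AlkB (an enzyme that strips certain methyl groups blocking reverse transcriptase), converted with bisulfite and made into libraries of tRNA fragments. cutadapt 1.9.3 and hg38 are named in the submitters' processing notes; no aligner, site caller or filter is stated (not given in the sources used here). Per the file headers, the authors deposited 3 read counts per site: coverage, unconverted reads and reads with another base. The methylation level the authors deposited is a fraction; it equals, within 0.0005, the unconverted reads divided by all reads with C or T, and 1 read in all had another base. Their deposited adjusted p-value, at most 0.0001 after rounding, entered no test. Separate cultures are not mentioned for the replicates, so p-values cover the spread between these libraries, which may be technical.

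Stems and loops were placed from each deposited sequence: the anticodon at 34 to 36, standard positions 49 to 73 set from the 3′ terminus, and the longest hairpin of the variable region. tRNA-SeC was placed from its own pairs. All 15 listed tRNAs matched RefSeq genes. Every listed site of tRNA-SeC, tRNA-Leu and tRNA-Ser is named; the members and lists were chosen with earlier results of these data known. edgeR 4.0.16 and limma 3.58.1 in R 4.3.3 were run on all sites with an intercept per library (edgeR), log2 ratios with 1 added (limma) and Benjamini-Hochberg adjustment. Permutation tests used scipy 1.17.1, numpy 2.4.6 and pandas 2.3.3 in Python 3.11.15. The per-site fit was tested on simulated reads, in 30 simulations of 42 sites for each size of change. The simulated spread between libraries was set in advance rather than taken from these data. With 5 changed sites per simulation, drawn from all 42, the fit recovered 8.67% of changes of 1 log2 unit and 60.7% of changes of 2. False calls per simulation averaged 0.1 and 0.233 in these settings, and 0.0667 with 0 changed sites. Alternatives were a listing in 2 libraries per group, minimums of 40 reads and a level of 20%, other tests and summaries, a replicate block and each library left out.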

Additional observations from a re-analysis of the deposited data

How the results depend on the processing

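The count of 1 changed site in the series became 0 with limma. It also became 0 with any single library left out except Si replicate 3, without which it stayed at 1. The reason was not tested. For the 8 tested sites of tRNA-SeC and tRNA-Leu, 54 of 59 alternative values kept their direction and 0 passed an adjusted p of 0.05. The log2 odds ratios that reversed did so with a library left out: they ran from -0.61 to 0.36 at base 81 of tRNA-Leu-CAA-4-1, and in tRNA-SeC from -0.50 to 0.50 at base 13, from -1.05 to 0.064 at base 15 and from -0.40 to 0.74 at base 37. At base 42 they ran from -2.07 to -0.28. The difference in listed sites ran from -1.67 to 3.00. The junction minus stem difference was 44.4 to 48.9 points with a library left out (exact sign-flip permutation p = 0.0625, the smallest that 5 libraries allow). It was 27.4 for sites of at least 20%, 62.1 with medians and 54.4 without positions 40 and 72 of the other tRNAs. Over tRNA-SeC, tRNA-Leu and tRNA-Ser alone, which leaves 3 libraries, it was 58.9. The tRNA-SeC stem difference turned to 2.32 with medians and to 9.46 with anticodon stems alone. It also turned to 3.62 without position 72 and to 3.02 without positions 40 and 72. It was -10.8 for sites of at least 20%, over 3 libraries, and -7.28 to -3.06 with a library left out. The junction difference of tRNA-Leu and tRNA-Ser turned to -2.32 with medians and to -1.66 for sites of at least 20%. The settings without positions 40 or 72 or both, against tRNA-His, against position 48 and with tRNA-Leu alone were chosen after seeing the data. Same-numbered libraries share only a number: the correlations of their deviations were 0.06, 0.26 and -0.38. With the replicate block 1 site was called in the series, base 13 of tRNA-SeC had a log2 odds ratio of -0.45, and the other tested sites of these tRNAs could not be fitted; the difference in listed sites was 0.33 (exact sign-flip permutation p = 1.0). Precision is limited by the 30 to 60 reads behind each level.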
